A study of Mus musculus and Rattus norvegicus with 14 samples.

Results

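The cytosolic ribosomal proteins build the ribosomes that translate nuclear-encoded messages. Genes were taken as members where they were annotated as protein coding and their name followed the Rpl or Rps pattern for the large and small subunit, with Rplp0, Rplp1, Rplp2 and Rpsa added. Of 54532 mouse genes 80 met the rule, 49 of the large and 31 of the small subunit, and of 33600 rat genes 79 did. The rule itself uses names and annotation and no measured value, but earlier results of these data were known when members and lists were chosen.

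Expression was measured by RNA sequencing in 12 mouse heart samples, with 3 libraries each labelled LQ-40, SQ-3, Model and Sham, and in 2 rat libraries. LQ-40 and SQ-3 are code-named compounds from a screen for candidates against myocardial fibrosis, and Model is set against the Sham control. The labels give no strain, age, dose, treatment time or model procedure, and do not state that the compound hearts underwent that procedure. They carry a distinct number for each library but do not say that libraries came from separate animals, so the p-values measure only the spread between these samples. The rat libraries are primary cells of 3 kinds (heart muscle cells, fibroblasts of the heart and macrophages grown from bone marrow), either assembled in a 3D co-culture or taken as 2D cells mixed in equal parts, with 1 library each and therefore no replicate check.

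A cytosolic ribosome has a small subunit, which reads the message, and a large subunit, which joins amino acids, and each holds one copy of most of its proteins. Ribosomal protein messages are short and abundant and carry a pyrimidine tract at their start, the TOP motif, through which mTORC1 and LARP1 adjust their translation more than their level. A few have paralogs with a restricted pattern, and Rpl3l, the copy of Rpl3 found mainly in heart and skeletal muscle, is the one known for the heart.

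Between 13085370 and 16698987 reads were assigned to genes in each mouse library, as recovered from the deposited FPKM (fragments per kilobase of transcript, scaled to library depth). Levels below are scaled FPKM, in which libraries were brought to a common median ratio, and log2 changes are on log2(scaled FPKM + 1). Of the 80 mouse members, 73 reached 1 FPKM in at least 3 libraries and entered the test over 13000 genes. The 7 that did not were Rpl10l, Rpl21, Rpl24, Rpl29, Rpl34, Rpl39l and Rps10. Rpl10l, a retrogene copy of Rpl10 used in the testis, had 0 reads in every library. The cardiomyocyte, fibroblast and macrophage marker lists were detected in the mouse hearts, and no gene of these lists was at 0 in all libraries.

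The members were among the abundant messages of the heart. Tested members had a median mean level of 100.7 scaled FPKM in Sham hearts, 58 of the 73 were above 50 and 13 were above 200. The highest was Rplp1, a protein of the acidic stalk that recruits elongation factors, with 736.5, 887.5 and 668.7 scaled FPKM in Model hearts and 774.2, 614.1 and 721 in Sham hearts. Next came the stalk's base protein Rplp0, with 372, 385.1 and 370.2 in Model hearts and 410.4, 328.3 and 427.3 in Sham hearts. For both proteins the Model values lay within or overlapped the range of the Sham values. By reads assigned to their own locus, the lowest tested members in Sham hearts were Rps18 (mean 1.34 scaled FPKM), Rpl13a (4.61), Rpl35a (9.77), Rps19 (21.4) and Rpl7a (24.6). The members together took 1.64% ± 0.353 of assigned reads in LQ-40 hearts, 1.57% ± 0.297 in SQ-3 hearts, 1.49% ± 0.179 in Model hearts and 1.38% ± 0.119 in Sham hearts (SD, n = 3 each). Mitochondrial transcripts took 15.9% ± 5.05 in LQ-40, 17.0% ± 2.68 in SQ-3, 13.4% ± 2.37 in Model and 19.9% ± 4.68 in Sham hearts. Without them the members' share was 1.73% ± 0.234 in Model hearts and 1.73% ± 0.235 in Sham hearts.

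Few members differed between Model and Sham hearts. The limma fit called 4 of the 73 tested members (5.48%) at an adjusted p under 0.05, 1 higher in Model and 3 lower, while 38.9% of all tested genes were called in this comparison, 2718 (20.9%) higher and 2335 (18%) lower. The member that rose was Rpl3, and those that fell were Rpl3l, Rpsa and Rps13. Rpl13a was the one further member with an unadjusted p under 0.05, which made 5 against 49% of genes. Over the members, 65 of the 73 changed by less than 0.5 log2 in either direction, and the median change was -0.10 (quartiles -0.19 and 0.04) against 0.03 for all tested genes. Under quantile normalization 9 members were called, 7 higher and 2 lower, and the median became 0.10. Without Sham library 1 the median was 0.03. With the trend over transcript length removed it was -0.02, with 35 members above 0 and 38 below. The Model and Sham libraries did not overlap for 7 members (9.59%), against 55.5% of all tested genes. The members' errors were wider than those of a typical gene, with a median standard error of 0.22 against 0.15, so that the median 95% interval reached 0.48 log2 to either side and changes within it were not detectable for a typical member. In these bulk samples fewer cells of a type and less RNA per cell cannot be told apart.

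**Figure D1:**
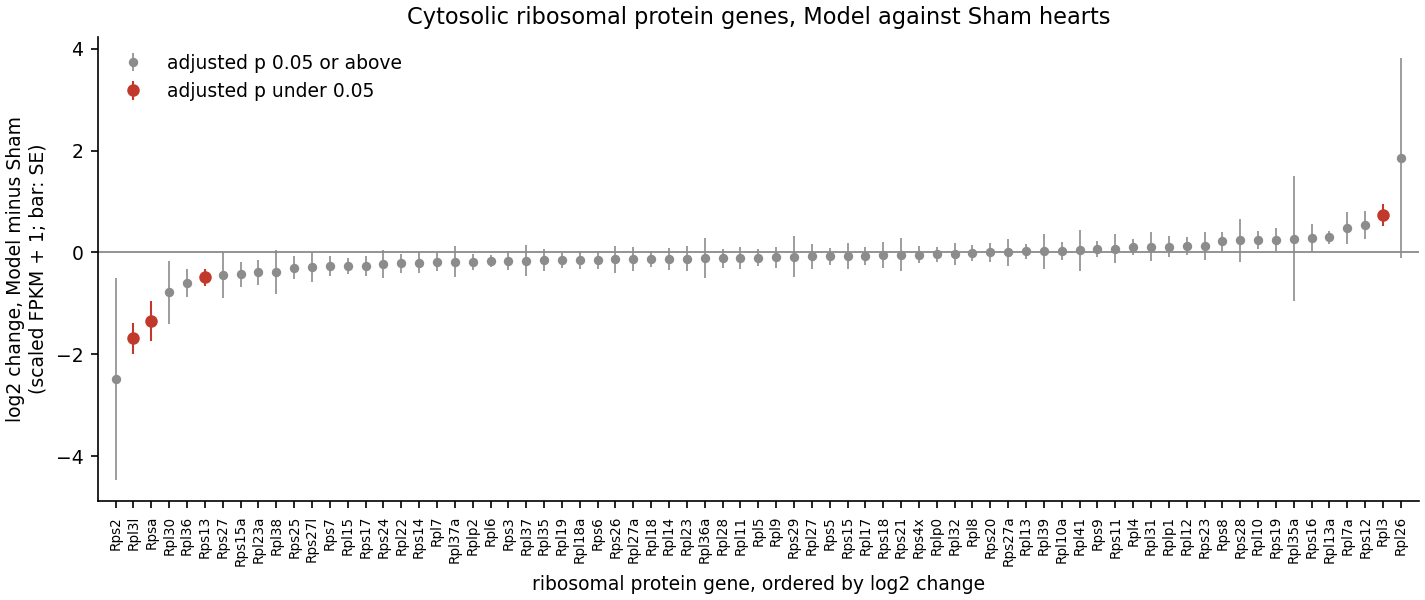
Log2 change of each of the 73 tested ribosomal protein genes, Model minus Sham, on log2(scaled FPKM + 1), ordered from lowest to highest, with bars for the standard error and the 4 genes at an adjusted p under 0.05 in red. Most points lie within 0.5 of 0; Rps2, Rpl26 and Rpl35a carry the widest bars.

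The largest called change was in Rpl3l, the striated muscle paralog of Rpl3 (chr17:24727820-24736143, plus strand, mm10). Rpl3, its ubiquitous form (chr15:80077791-80091868, minus strand), sits near the peptidyl transferase centre of the large subunit. The coding sequences, from the GENCODE M21 annotation of GRCm38, shared 74.71% of 1206 aligned bases, which places 305 differences between them. The first 60 coding bases are shown because they show how far the genes can be separated by sequence, with the 13 differing bases in capitals.
Rpl3l: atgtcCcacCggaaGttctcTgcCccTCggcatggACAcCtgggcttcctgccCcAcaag
Rpl3: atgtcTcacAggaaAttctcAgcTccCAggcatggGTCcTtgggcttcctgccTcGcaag

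Rpl3l measured 55.0, 72.5 and 57.4 scaled FPKM in Model hearts and 213.7, 204.3 and 180.8 in Sham hearts. Every Model library was below every Sham library, and the highest Model value was under the lowest Sham value by a wide gap. The means were 61.6 ± 9.49 in Model hearts and 199.6 ± 16.9 in Sham hearts (SD, n = 3 each), a log2 change of -1.69 (SE 0.30, 95% interval -2.35 to -1.02, limma adjusted p = 0.00267) or 3.22-fold lower. The call held under all 16 alternatives, with adjusted p between 0.000379 and 0.0139. Rpl3l is one of 2 members for which no pseudogene was matched by sequence, the other being Rpl39l.

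Rpl3 went the other way. It measured 55.9, 66.6 and 56.0 scaled FPKM in Model hearts and 33.5, 37.7 and 34.4 in Sham hearts, again with no overlap. The change was 0.74 log2 (SE 0.22, limma adjusted p = 0.0207), 1.67-fold higher. It missed the threshold without Model library 2 (adjusted p = 0.0668), Sham library 1 (0.0623) or Sham library 3 (0.0508). A processed copy on chromosome X, Rpl3-ps1, shares 99.83% of its bases with Rpl3 and took between 34.9% and 43.9% of the reads of the pair in every library. With both loci added, the pair had 332 ± 11.04 RPM (assigned reads scaled to the usual library size of 1e6) in Model hearts and 170.5 ± 11.7 in Sham hearts (SD, n = 3 each). RPM takes all assigned reads as its total, mitochondrial ones included, and cannot be set against the fold change in scaled FPKM. On scaled FPKM, Rpl3 with its matched pseudogenes was 98.2 ± 3.96 in Model hearts and 59.3 ± 1.37 in Sham hearts (0.72 log2).

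The balance between the paralogs was measured within each library, where no scaling between libraries is needed. Rpl3l made up 49.6%, 52.1% and 50.6% of the summed scaled FPKM of the pair in Model hearts and 86.4%, 84.4% and 84.0% in Sham hearts. The groups did not overlap, and the spread within each was small beside the gap between them. The ratio of Rpl3l to Rpl3 was 1.03 ± 0.0528 in Model hearts and 5.69 ± 0.604 in Sham hearts (SD, n = 3 each), a difference of -2.46 log2, or 5.49-fold lower. With reads of its pseudogenes added to Rpl3, the ratio was 0.58, 0.71 and 0.60 in Model hearts and 3.56, 3.395 and 3.13 in Sham hearts, so the level of Rpl3l beside Rpl3 depends on how the copies are counted, while the groups stayed apart. The two-sided exact permutation test gave p = 0.1, the smallest that 3 against 3 libraries allow, and 0.2 after adjustment over the 6 comparisons of this ratio. The summed level of both paralogs was 121 ± 15.6 scaled FPKM in Model hearts and 234.8 ± 17.2 in Sham hearts.

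**Figure D2:**
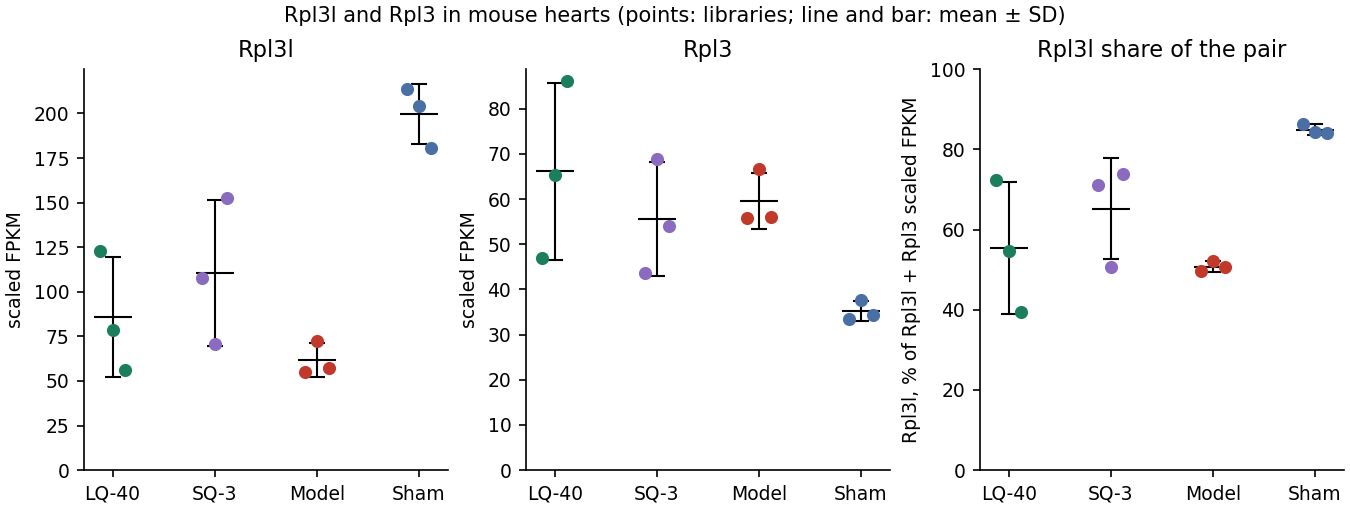
Rpl3l (left, scaled FPKM), Rpl3 (middle, scaled FPKM) and the share of Rpl3l in their summed scaled FPKM (right, percent) in LQ-40, SQ-3, Model and Sham hearts; points are libraries, lines and bars the mean ± SD of 3. Model libraries lie near 50% in the right panel and Sham libraries near 85%, with the LQ-40 and SQ-3 libraries spread between 39.5% and 73.8%.

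Markers of cell types moved with this pair. Of the 11 cardiomyocyte markers (contractile and calcium-handling genes such as Myh6, Tnnt2 and Ryr2), 10 fell in Model hearts and none rose, with a median log2 change of -1.09, and their summed level was 10424 to 12304 scaled FPKM in Model hearts and 21251 to 23520 in Sham hearts. All 8 fibroblast markers rose, with a median of 2.54, and their sum was 3317 to 3637 in Model hearts and 471 to 618 in Sham hearts. Of 9 macrophage markers 6 rose and 1 fell. The part of these shifts in the change of Rpl3l and Rpl3 was not tested. Across the 12 libraries the genes with the pattern most like that of Rpl3l were Gcdh, a mitochondrial glutaryl-CoA dehydrogenase (Pearson r = 0.99), the mitochondrial ribosomal protein Mrpl35, the phosphate carrier Slc25a3, the complex I subunit Ndufs3 and Svip (0.98 each), whereas the other members had a median r of -0.04 to it and none exceeded 0.8. These coefficients describe 12 libraries that share their groups and scaling.

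In LQ-40 hearts Rpl3l measured 122.8, 78.7 and 56.2 scaled FPKM, and in SQ-3 hearts 107.6, 71.0 and 152.7. The LQ-40 values overlapped the Model values, as did the SQ-3 value of 71.0, and every compound library stayed below the lowest Sham library. LQ-40 against Model gave 0.41 log2 (95% interval -0.26 to 1.08, adjusted p = 0.63) and SQ-3 against Model gave 0.77 (0.11 to 1.44, unadjusted p = 0.0269, adjusted p = 0.301), so neither passed the limma test. Against Sham, Rpl3l was lower in LQ-40 hearts (-1.28 log2, adjusted p = 0.0238), and the SQ-3 difference of -0.91 did not pass (adjusted p = 0.0936). Rpl3 was 46.9, 65.4 and 86.1 scaled FPKM in LQ-40 hearts and 43.6, 68.8 and 54.1 in SQ-3 hearts, overlapping Model in both and above every Sham value in both. It was higher in LQ-40 than in Sham hearts (0.85 log2, adjusted p = 0.0289), and the SQ-3 difference from Sham of 0.62 did not pass (adjusted p = 0.104). LQ-40 against Model was 0.11 and turned to -0.10 without LQ-40 library 3, and SQ-3 against Model was -0.12 and turned to 0.04 without SQ-3 library 1.

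The share of Rpl3l in the pair was 72.4%, 54.6% and 39.5% in LQ-40 hearts and 71.2%, 50.8% and 73.8% in SQ-3 hearts. The libraries within each compound group lay further apart than those within Model or Sham. The log2 ratio differed from Model by 0.30 with LQ-40 (exact permutation p = 0.7) and by 0.90 with SQ-3 (p = 0.2), and from Sham by -2.16 and -1.55 (p = 0.1 each, the smallest possible). In the same library order the summed cardiomyocyte markers were 17305, 12624 and 8646 scaled FPKM in LQ-40 hearts and 14372, 13358 and 16991 in SQ-3 hearts, and the summed fibroblast markers were 1118, 2491 and 4036 in LQ-40 hearts and 1968, 2333 and 1781 in SQ-3 hearts. In both compound groups the library with the lowest share of Rpl3l also had the lowest cardiomyocyte and the highest fibroblast sum.

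Among small subunit proteins, Rps13, which contacts the 18S rRNA, fell. It measured 35.8, 39.0 and 35.8 scaled FPKM in Model hearts and 65.3, 48.5 and 44.5 in Sham hearts. The groups did not overlap, but Sham library 1 stood well above the other two. The change was -0.49 log2 (SE 0.17, limma adjusted p = 0.0399). It passed under 8 of 16 alternatives and its misses included quantile normalization (0.0581), no filter (0.0712) and each fit without 1 of the libraries other than Sham library 3 (0.0601 to 0.144). In LQ-40 and SQ-3 hearts Rps13 spanned 37.8 to 45.1 and 35.7 to 51.5 scaled FPKM, and each group overlapped both the Model and the Sham range.

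Rpsa, the small subunit protein also known as the laminin receptor precursor, was called lower in Model hearts at its own locus (chr9:120127689-120132369, plus strand). It measured 33.4, 54.3 and 106.5 scaled FPKM in Model hearts and 112.5, 164.3 and 177.4 in Sham hearts, a log2 change of -1.34 (SE 0.39, limma adjusted p = 0.0204). The call was lost without Model library 1 or 2 or Sham library 2 or 3, with adjusted p up to 0.0810, and with no filter (0.0505). The groups did not overlap, though Model library 3 and Sham library 1 were close. Rpsa also had the lowest unadjusted p of the members in both compound comparisons, at 180, 112.7 and 196.8 in LQ-40 hearts (1.44 log2 against Model, adjusted p = 0.146) and 157.2, 109.7 and 197.4 in SQ-3 hearts (1.36, adjusted p = 0.2). These values depend on a processed copy, Rpsa-ps10 (chr3:150072658-150073542, minus strand), which differs from the Rpsa coding sequence at 6 of 885 aligned bases. The stretch below, coding bases 160 to 219, holds 2 of these differences in capitals and shows how little sequence separates the loci.
Rpsa: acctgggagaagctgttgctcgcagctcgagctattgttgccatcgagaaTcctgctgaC
Rpsa-ps10: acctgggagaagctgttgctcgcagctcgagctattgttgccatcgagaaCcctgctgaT

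Rpsa-ps10 took 4.85%, 41.1% and 4.61% of the reads of both loci in LQ-40 hearts, 4.40%, 40.9% and 4.84% in SQ-3 hearts, 81.4%, 74.4% and 40.1% in Model hearts and 40.1%, 5.57% and 4.83% in Sham hearts. The shares fell near 5%, near 40% or near 75% to 80%, and the highest step held Model libraries only. The sum of both loci was 650 ± 89.1 RPM in LQ-40 hearts, 602 ± 44.5 in SQ-3 hearts, 643 ± 58.5 in Model hearts and 527 ± 15.9 in Sham hearts (SD, n = 3 each). These RPM are not on the scale of the log2 changes. On scaled FPKM each member was also summed with its matched pseudogenes, an alternative chosen after seeing the data. The Rpsa change was then 0.05 log2 in Model against Sham (limma adjusted p = 0.79), 0.05 in LQ-40 against Model and -0.03 in SQ-3 against Model. The lower level of Rpsa in Model hearts therefore holds for reads assigned to its own locus and not for the reads of both loci.

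Rps2, a small subunit protein at the messenger entry tunnel (chr17:24718116-24721929, plus strand), showed the same in a more extreme form. It measured 277.7, 113.8 and 0.51 scaled FPKM in LQ-40 hearts, 3.84, 0.56 and 0.26 in SQ-3 hearts, 113.1, 138.1 and 0.26 in Model hearts and 170.2, 140.8 and 141.9 in Sham hearts. All SQ-3 libraries and the library numbered 3 of both LQ-40 and Model were near 0 beside the rest, and the Model change of -2.48 (SE 1.99, limma adjusted p = 0.343) was not called. Its copy Rps2-ps13 (chrX:52898588-52899469, plus strand) differs at 7 of 882 aligned bases, of which 2 lie in coding bases 25 to 84, shown here in capitals.
Rps2: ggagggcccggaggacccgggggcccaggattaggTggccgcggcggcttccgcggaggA
Rps2-ps13: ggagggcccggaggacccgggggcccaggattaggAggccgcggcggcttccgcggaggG

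Rps2-ps13 took 9.72%, 49.99% and 99.7% of the reads of this pair in LQ-40 hearts, 97.4%, 99.8% and 99.9% in SQ-3 hearts, 47.7%, 44.4% and 99.9% in Model hearts and 48.9%, 46.0% and 48.2% in Sham hearts. The sum of both loci stayed between 285 and 533 RPM in all 12 libraries. Rpl26, a large subunit protein near the exit tunnel, shared its reads with Gm15772 on chromosome 5, which differs at 2 of 438 bases and took between 2.82% and 99.7% of the reads of the pair, while the sum ranged from 200 to 378 RPM. The same was seen to a smaller extent for Rpl30 with Gm12191 (4.41% to 80.9%), Rps26 with Rps26-ps1 (0.51% to 53.2%) and Rplp0 with Gm8730 (0.22% to 15.5%).

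**Figure D3:**
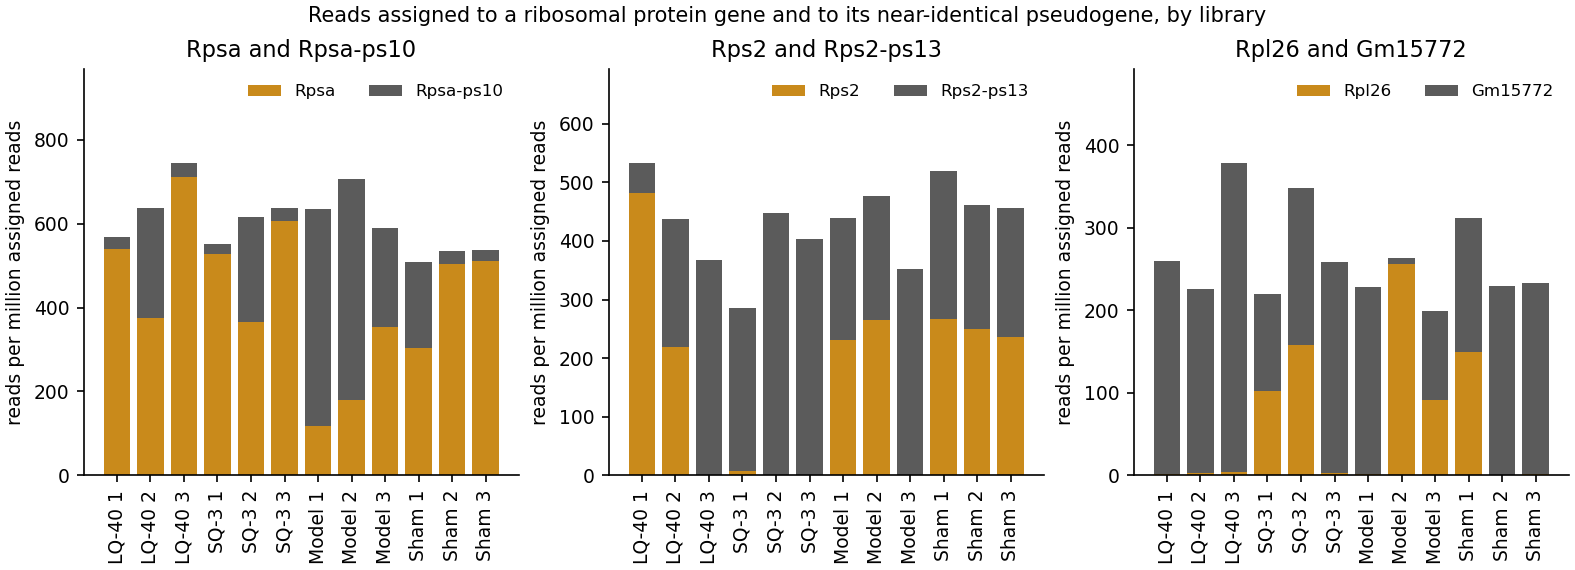
RPM of Rpsa, Rps2 and Rpl26 (orange) and to a near-identical pseudogene of each (grey), stacked, in each of the 12 mouse libraries. The stacked height varies less than the orange part: Rps2 lies between 0.459 and 481 RPM while the sum with Rps2-ps13 lies between 285 and 533.

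Across all members 1827 annotated pseudogenes matched a member by sequence (at least 80% identity over at least 50% of the pseudogene), 676 of them had reads, and together they held 13.7% of the reads of these families. For 9 members more than 50% of family reads lay on pseudogenes, namely Rpl17 (78.4%), Rpl21 (96.4%), Rpl24 (90.4%), Rpl26 (74.8%), Rpl29 (99.6%), Rpl34 (98.8%), Rps10 (98.5%), Rps18 (60.3%) and Rps2 (65.9%). These include 5 of the 7 members that stayed below the filter. The levels of these 9 members are those of the named locus and are uncertain as levels of the protein's message. The uncertainty is not confined to them, as 33 members had more than 10% of family reads on pseudogenes. Summing also left some members low: in Sham hearts Rps18 averaged 3.84 scaled FPKM and Rpl13a, with 4.28% on pseudogenes, 4.90. Whether these low values are the level of the message was not tested. When members were summed with their pseudogenes, 78 could be tested and 3 were called in Model against Sham, Rpl3 higher (0.72 log2, limma adjusted p = 0.0156) and Rpl3l and Rps13 lower. The highest level over the 12 libraries exceeded the lowest more than 10-fold for 3 members at their own locus (Rps2, Rpl26 and Rpl35a) and for 0 after summing.

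Members with a known regulatory or medical role were also described, whatever they showed. In Model against Sham hearts the log2 change was -0.15 (SE 0.17) for Rps6, the target of the S6 kinases, and -0.10 (SE 0.16) and -0.11 (SE 0.21) for Rpl5 and Rpl11, which with 5S rRNA bind Mdm2. It was 0.25 (SE 0.23) for Rps19, mutated in Diamond-Blackfan anaemia, and -0.38 (SE 0.44) for Rpl38, required for translation of Hox messages in mouse embryos. For Rpl13a, which in human monocytes silences inflammatory messages, it was 0.30 (SE 0.13, adjusted p = 0.0833), with 5.20, 6.20 and 6.21 scaled FPKM in Model hearts and 5.49, 4.04 and 4.30 in Sham hearts. None of these passed the test. Rpl13a passed with the length trend removed (limma adjusted p = 0.0260) and without Sham library 1 (0.0392).

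No member of the other paralog pairs was called. Rps27 changed by -0.45 log2 (SE 0.45) and its paralog Rps27l, a p53 target, by -0.29 (SE 0.29), with groups that overlapped for both. Rpl39, a small protein lining the exit tunnel, changed by 0.03 (SE 0.34), and Rpl39l, known from the testis, did not exceed 0.403 scaled FPKM in any library. Rpl10 changed by 0.25 (SE 0.17) and Rps4x, the X-linked form of a protein with a Y-linked form in humans, by -0.05 (SE 0.17). Rpl22 and Rplp2, the second acidic stalk protein, changed by -0.21 (SE 0.19) and -0.18 (SE 0.16). Whether these changes differ from those of Rpl3 and Rpl3l was not tested. The uncalled members with the lowest p included Rpl36 (-0.60 log2, SE 0.28, adjusted p = 0.110) and Rps12 (0.54, SE 0.28, adjusted p = 0.143). Rpl36 measured 188.8, 276.9 and 179.1 scaled FPKM in Model hearts and 454.5, 261.5 and 275.9 in Sham hearts, which overlapped. Rps12 measured 47.2, 63.6 and 36.8 in Model hearts and 34.0, 29.5 and 34.9 in Sham hearts, which did not.

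The spread within groups was shared by most members. One library in each group held the group's highest value for most of the 73 tested members: LQ-40 library 3 for 66, SQ-3 library 2 for 63, Model library 2 for 67 and Sham library 1 for 65. The median member lay 0.25, 0.29, 0.23 and 0.25 log2 above its group mean there, and SQ-3 library 1 was 0.29 below its group mean and lowest for 65. Over all tested genes the corresponding median deviations were at most 0.01. Among 1286 other genes with transcripts under 1000 bases they were 0, 0.11, 0.09 and 0.16, and among mitochondrial ribosomal proteins -0.27, -0.05, 0.11 and 0.17. The median within-group SD was 0.28 log2 for members, 0.24 for mitochondrial ribosomal proteins and 0.19 for all tested genes. Over the 12 libraries the members were set against the summed level of all members but Rpl3l. Of the 73, 49 had a Pearson r above 0.8 with it, and the median was 0.87. Apart from Rpl3l each member is itself part of that sum, which raises r.

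Neither compound moved the members past the test against Model. In LQ-40 against Model hearts the limma fit called 0 of 73 members, against 0.669% of all tested genes, and 1 member (Rpsa) had an unadjusted p under 0.05, against 12.1% of genes. The libraries of both groups did not overlap for Rpsa and Rpl6 (2 members, against 18.1% of genes). The median member change was 0.14 log2 and 65 of 73 were above 0, with 0.01 for all tested genes. This shift rested on single libraries: without LQ-40 library 3 the median was 0.01 with 37 above 0, and without Model library 2 it was 0.24. With the trend over transcript length removed it was 0.11 with 60 above 0. In SQ-3 against Model hearts 0 of 73 were called, against 0.346% of genes, and 2 (Rpsa and Rpl3l) had an unadjusted p under 0.05, against 14.2%. Only Rpsa had no overlap, against 26.4% of genes. The median was 0.10 and 59 were above 0 (37 under quantile normalization, with a median of 0.00). With the length trend removed the median was 0.03 with 47 above 0. Without SQ-3 library 2 the median turned to -0.04 with 29 above 0, and without SQ-3 library 1 it was 0.25. Both comparisons share the Model libraries.

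Set against each other, which was the one pair of compounds in the series, LQ-40 and SQ-3 hearts differed in 0 of 73 members and in 0 of 13000 genes by limma (0% called), with an unadjusted p under 0.05 for 1 member, Rpl17, and for 3.03% of genes. Rpl17 was also the one member without overlap, against 6.12% of genes. Rpl17 (0.52 log2, 95% interval 0.11 to 0.92) is one of the members with most family reads on pseudogenes. Summed with its matched pseudogenes it differed by 0.12 log2 (SE 0.23) between the compounds, so the separation holds for its own locus only. The 95% interval of the difference was -1.03 to 0.30 for Rpl3l and -0.25 to 0.70 for Rpl3, so differences of either sign within these intervals remain possible. The labels give no dose for either compound, so it is not known whether doses matched. Against Sham, LQ-40 hearts had 2 members called (2.74%, against 15.8% of genes), Rpl3 higher (9.83% of genes) and Rpl3l lower (5.93%). An unadjusted p under 0.05 was found for 3 members and 35.7% of genes, and no overlap for 5 members (Rpl3, Rpl13a, Rps12 and Rps19 higher, Rpl3l lower) and 33.2% of genes. Both calls were lost when LQ-40 library 2 or 3 or Sham library 1 or 2 was left out, and the Rpl3 call without Sham library 3. SQ-3 hearts had 0 members called against Sham, against 6.68% of genes, with an unadjusted p under 0.05 for Rps2, Rpl3l and Rpl3 (28% of genes) and a lowest adjusted p of 0.0865. There was no overlap for 4 members (Rpl3 higher and Rpl3l, Rpl17 and Rps2 lower), against 36.6% of genes. Summed with matched pseudogenes, the SQ-3 difference from Sham was 0.05 log2 (SE 0.23) for Rpl17 and 0.70 (SE 0.20) for Rpl3. For Rps2 it was -0.42 (SE 0.22, limma adjusted p = 0.237).

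The mitochondrial ribosomal proteins, which build the separate ribosome that translates mitochondrial messages, were counted for comparison. Of 77 tested genes 63 (81.8%) fell in Model against Sham hearts and 0 rose, with a median of -0.66 log2. Of all tested genes 18% were called lower and 20.9% higher in this comparison. Mrps28 averaged 24.7 scaled FPKM in Model hearts and 51.2 in Sham hearts (-1.01 log2, limma adjusted p = 0.0045), and Mrps27 averaged 8.04 in Model hearts and 15.7 in Sham hearts (-0.88, adjusted p = 0.0031). The summed level was 1060 to 1254 scaled FPKM in Model hearts and 1760 to 2218 in Sham hearts. Against Model 0 of the 77 were called with either compound, beside 0.669% of all tested genes with LQ-40 and 0.346% with SQ-3.

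**Figure D4:**
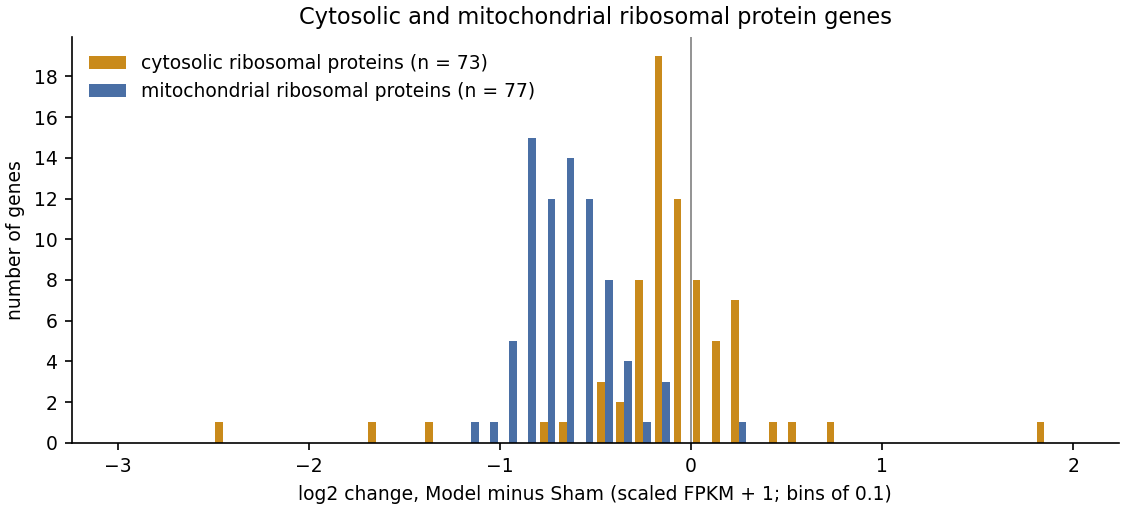
Number of cytosolic (orange, 73) and mitochondrial (blue, 77) ribosomal protein genes by log2 change, Model minus Sham, on log2(scaled FPKM + 1), in bins of 0.1. Most mitochondrial genes lie between -1 and -0.4 (median -0.66), and most cytosolic genes lie close to 0 (median -0.10).

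Genes that act around the ribosome were counted in the same way in Model against Sham hearts, where 38.9% of all tested genes were called. Ribosomal proteins whose names fall outside the pattern, such as Fau, Rps3a1 and Rack1, had 0 of 6 called (median -0.07 log2). Named ribosomal protein pseudogenes had 3 of 66 called, Rpl3-ps1 and Rpl26-ps6 higher and Rpl23a-ps3 lower. Of 54 ribosome biogenesis genes 1 rose and 8 fell (median -0.02), with Ubtf, the activator of rRNA transcription, at 0.49 and Rrs1, an assembly factor, at -0.56. Of 21 mTORC1, MYC and TOP regulators 3 rose and 1 fell, the risen ones being Myc (0.92, adjusted p = 0.0054), which drives ribosome production, and the mTORC1 inhibitors Deptor (0.51) and Sesn2 (0.43), and the fallen one Cnbp (-0.56), a protein that binds TOP messages.

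Translation factors gave a second pair of paralogs that moved apart. Eef1a1, the widespread form of the factor that delivers aminoacyl-tRNA, measured 1102, 1034 and 1020 scaled FPKM in Model hearts and 562, 559 and 583 in Sham hearts (0.89 log2, limma adjusted p = 0.0096). Eef1a2, its form in adult muscle and neurons, measured 310, 358 and 318 in Model hearts and 583, 727 and 752 in Sham hearts (-1.06, adjusted p = 0.0285). The groups did not overlap for either gene. Both belong to the 12 elongation and termination factors, of which 1 rose and 3 fell (median -0.11). Eef1a1 also belongs to the 16 non-ribosomal TOP messages, of which 2 rose (Eef1a1 and Pabpc1, the poly(A)-binding protein, 1.02) and 2 fell (Naca, -0.72, and Eef1d, -0.39), with a median of -0.09. Of 32 initiation factors 2 rose and 7 fell (median -0.16), Eif4e, the cap-binding protein, among the fallen at 15.6 scaled FPKM in Model hearts and 29.6 in Sham hearts (-0.89, adjusted p = 0.0036). None of these lists had a gene called in LQ-40 or SQ-3 hearts against Model, where 0.669% and 0.346% of all tested genes were called.

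In the rat cultures the members took 3.32% of 11910160 assigned reads in the 3D library and 3.17% of 13262387 in the 2D library. Of 79 loci 75 reached 1 FPKM, and 65 of them (86.7%) were higher in 3D than in 2D, against 50.5% of all 13405 tested genes. The shift was small, with a median log2 ratio of 0.13 (1.10-fold, quartiles 0.06 and 0.19), beside 0.00 for all genes and 0.01 for 73 mitochondrial ribosomal protein loci. Other lists had medians of like size or larger, at 0.32 for 53 ribosome biogenesis genes, 0.19 for 27 initiation factors, 0.11 for 10 elongation and termination factors and 0.11 for 15 non-ribosomal TOP messages. Fibroblast markers were at 0.85 (8 genes) and proliferation markers at -0.33 (8 genes), and their part in the shift of the members was not tested. At 1.5-fold or more 3 loci were higher and 1 lower, against 9.39% and 6.69% of genes. The 95% interval of the read ratio, which covers counting error only, lay above 1 for 55 loci and below 1 for 4. No such count was made over all genes. Deeply counted loci pass at small ratios, as Rplp0 did with 21779 reads in 3D (interval 1.03 to 1.06).

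The 4 loci past 1.5-fold were one each of Rpl7a, Rps27a and Rpl10l, higher in 3D, and another of Rpl7a, lower in 3D. Rpl10l had 14.6 scaled FPKM in 3D and 8.40 in 2D (1.73-fold, interval 1.28 to 2.37). One Rpl7a locus (chr3:5459160-5461583, Rnor_6.0) had 99.3 scaled FPKM in 3D and 29.2 in 2D, and the other (chr3:4867233-4869656) had 39.1 in 3D and 114 in 2D. Rps27a, which encodes ubiquitin fused to a ribosomal protein, had 557 in 3D and 272 in 2D on chromosome 5, and 597 in 3D and 852 in 2D on chromosome 14. Each pair of loci moved in opposite directions. Summed by symbol, Rpl7a had 138 in 3D and 143 in 2D (0.967-fold in reads, interval 0.897 to 1.04). Rps27a had 1154 in 3D and 1124 in 2D. Its 1.06-fold ratio is that of summed reads adjusted for depth, from loci of unlike length, and not of these levels. Among symbols with a single locus, Rps27 was higher in 3D at 451 against 319 in 2D (1.41-fold, interval 1.32 to 1.52) and Rpl5 at 762 against 638 in 2D (1.19-fold, interval 1.16 to 1.23). Rps19 was lower at 143 in 3D against 191 in 2D (0.751-fold, interval 0.69 to 0.819).

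Rpl3l was near the detection limit in the rat cultures, with 6 reads in 3D and 4 in 2D (0.382 and 0.219 scaled FPKM), while Rpl3 had 355 scaled FPKM in 3D and 321 in 2D. Cardiomyocyte markers were also low there, with a summed level of 33.7 scaled FPKM in 3D and 34.2 in 2D and the ventricular marker Myl2 at 0 in both, beside fibroblast sums of 3028 in 3D and 2750 in 2D. Macrophage markers summed to 20.6 in 3D and 27.0 in 2D. Of the labelled cell kinds, cardiomyocytes and macrophages thus both had low marker levels in both libraries.

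**Figure D5:**
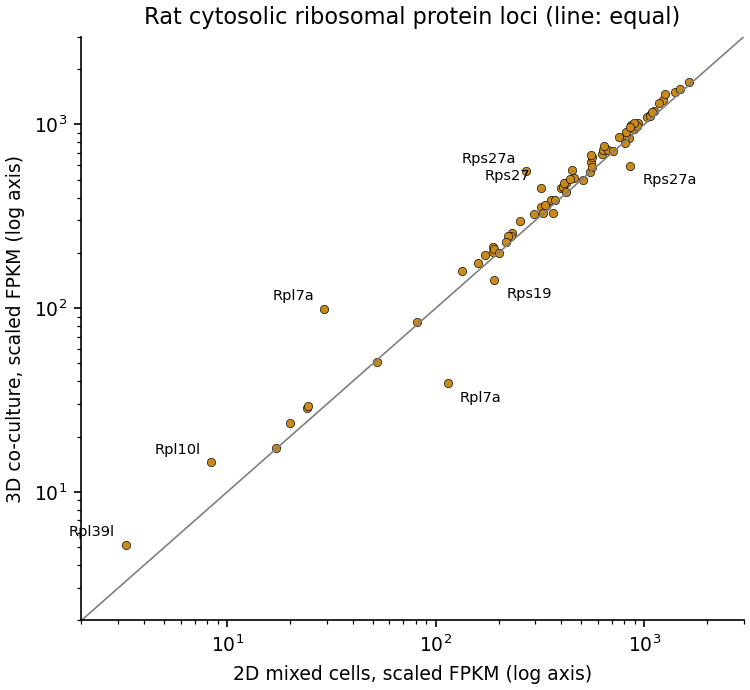
Scaled FPKM of rat ribosomal protein loci in the 3D co-culture (vertical, log axis) and in 2D mixed cells (horizontal, log axis), 1 library each, with the line of equal levels. Most loci lie slightly above the line; the pairs of Rpl7a and Rps27a loci lie on opposite sides of it.

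The regions around the start sites were searched for short motifs on both strands, none containing another, in RefSeq windows of 300 bases (250 before and 50 after the start, GRCm38.p6), which matched 60 of the 80 mouse members. A gene was counted where any of its windows held the motif on either strand, so a CTTTCC match can be a purine stretch on the gene's strand. The pyrimidine stretch CTTTCC was present in 32 of 60 members (53.3%), 30.4% of mitochondrial ribosomal protein genes and 29.3% of all 27025 genes. The ETS-type motif CCGGAAG was present in 25 of 60 members (41.7%), 37.7% of mitochondrial ribosomal protein genes and 9.93% of all genes. The TATA box TATAAA was present in 6 of 60 members (10%), 7.25% of mitochondrial ribosomal protein genes and 15.7% of all genes. The 30 bases around the annotated start (base 16) were searched for CTTTCC on the gene's strand, beginning at bases 6 to 21. The search did not cover all 60 members, and no such count was made over all genes. The stretch was found in 9 of the members searched, beginning at bases 10 to 20. Shown are 3 of the 4 in which it began at bases 16 to 18, with the stretch in capitals, as examples of its place beside the start.
Rpl38 (chr11:114668565-114668594, plus strand): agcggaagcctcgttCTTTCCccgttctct
Rpl28 (chr7:4792950-4792979, plus strand): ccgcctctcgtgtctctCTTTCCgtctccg
Rps27 (chr3:90213634-90213663, minus strand): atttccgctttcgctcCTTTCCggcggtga
In Rpl38 the stretch begins at the annotated start base, and in Rpl28 and Rps27 within a few bases of it.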

How the data were processed

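Poly(A) RNA was sequenced; per the submitters' processing notes reads were trimmed with fastp, aligned with HISAT2 2.0.5 to mm10 or Rnor_6.0 and counted with featureCounts 1.5.0-p3. No source used here gives the annotation release, the strand setting or how reads matching several loci were treated. Values deposited by the authors are FPKM per gene, per the file headers. FPKM were divided by median-of-ratios factors, filtered (at least 1 FPKM in at least 3 of 12 libraries), log2-transformed with a pseudocount of 1 and fitted with limma 3.58.1 (R 4.3.3) over all 4 groups, with a trended variance, two-sided tests and Benjamini-Hochberg adjustment over 13000 genes. The fit was tested on simulated data. Whole reads were recovered from FPKM and gene length (100% of values within 0.02 of a whole number). Pseudogenes were matched with blastn 2.17.0. Genes were named by rule: called members, listed paralogs and members with known roles, the extremes by level or unadjusted p, and up to 4 called genes per list. Members and lists were chosen with earlier results of these data known. Alternatives covered scaling, pseudocount, filter, samples fitted, recovered reads, block, transcript length, left-out libraries and pseudogene sums. Reads do not carry molecular identifiers, and the rat intervals cover counting error only. Mouse intervals are from the limma fit and reflect the spread between libraries. Exact permutation tests used scipy 1.17.1.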

Additional observations from a re-analysis of the deposited data

How the results depend on the processing

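The call of Rpl3l in Model against Sham was kept under every alternative run. The number of members called in Model against Sham was 9 under quantile normalization and 2 with no filter, against 4, and with 1 library left out it ranged from 1 to 3, being 1 without Model library 2 and 2 without Model library 1 or Sham library 2 or 3. In LQ-40 against Sham it was 0 with no filter and 0 with only both groups fitted, and 0 to 3 with 1 library left out. In SQ-3 against Sham it was 1 (Rps2) with only both groups fitted. That call is for reads at the Rps2 locus, and with matched pseudogenes summed Rps2 changed by -0.42 log2 (SE 0.22, limma adjusted p = 0.237). With 1 library left out the number called was 0 to 0 in SQ-3 against Sham, LQ-40 against Model, SQ-3 against Model and LQ-40 against SQ-3. Among the named genes the directions that reversed were Rpsa with pseudogenes summed (0.050 in Model against Sham, -0.031 in SQ-3 against Model), Rpl3 in LQ-40 against Model (-0.10 to 0.33 with 1 library left out) and Rpl3 in SQ-3 against Model (-0.28 to 0.041). The members' median log2 change also changed sign, in Model against Sham (-0.10) to 0.10 under quantile normalization and 0.03 without Sham library 1, in SQ-3 against Model (0.10) to -0.04 without SQ-3 library 2, and in LQ-40 against SQ-3 (0.03) to -0.10 without LQ-40 library 3 and -0.12 without SQ-3 library 1. Against Sham, where the medians were 0.03 for LQ-40 and 0.02 for SQ-3, they ranged from -0.07 to 0.17 and from -0.12 to 0.16 with 1 library left out. The cause was not tested beyond the pairs of loci described. The log2 ratio of Rpl3l to Rpl3 in Model against Sham ranged from -2.51 to -2.37 with 1 library left out. Without mitochondrial reads the members' share of reads was 1.89% in SQ-3, 1.73% in Model and 1.73% in Sham hearts.

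With the replicate number of the titles as a block, 3 members were called in Model against Sham (Rpl3l, Rpsa and Rpl3, while Rps13 had an adjusted p of 0.0627) and 1 (Rps2) in SQ-3 against Sham. The labels do not say whether a number is shared between groups. Of 18 same-numbered pairs 3 had a correlation of within-group deviations above 0.1, over a range of -0.268 to 0.219. Differently numbered pairs ranged from -0.394 to 0.389. With 3 libraries per group these correlations cannot exclude a pairing.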
